A study of Mus musculus with 6 samples.

Results

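The clustered protocadherin genes were followed in 6 RNA-seq libraries of murine embryonic stem cells (ESCs). The members are all RefSeq rows whose symbol places them in the Pcdha (α), Pcdhb (β) or Pcdhg (γ) cluster, and 57 of the 26073 rows met this rule, 14 in α, 22 in β and 21 in γ. Each row belongs to a different gene. All lie on the plus strand of chromosome 18 in mm9 (NCBI build 37), the α rows from 37089939 to 37347312, the β rows from 37424652 to 37681073 and the γ rows from 37821599 to 38001526. V6.5 cells, a C57BL/6-129 ESC line, were maintained on irradiated fibroblasts and passaged once without them. All libraries come from cells that were infected with a lentiviral shRNA construct and selected with puromycin. The hairpin was directed against GFP (control), Smc1 (SMC1, a cohesin subunit), CapH2 (CAPH2, a condensin II subunit, hairpins CAPH2 #1 and CAPH2 #2) or Smc2 (SMC2, the subunit shared by both condensins, hairpins SMC2 #1 and SMC2 #2). There was 1 library per hairpin, so GFP and SMC1 have no replicate and the pairs for CAPH2 and SMC2 are different hairpins.

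Clustered protocadherins are cell-surface cadherins that bind identical proteins on a neighbouring cell, and they are best known in neurons, where the combination a cell makes gives its branches an identity. In the α and γ clusters each gene has its own promoter and a large variable exon for the extracellular and transmembrane parts, which is spliced to constant exons that encode a shared cytoplasmic tail. A β gene is a single coding exon with no shared tail. Promoter choice is tied to CTCF and cohesin, which bind at variable-exon promoters and at enhancers of the clusters, and to DNA methylation of the promoters.

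The structure of the clusters sets what a row can show. The α constant exons span 59, 89 and 2712 bases (2860 in all), and the γ constant exons 59, 89 and 1968 (2116 in all). A read in a constant exon counted for every row of its cluster. The 14 α rows, and likewise the 21 γ rows, are therefore close to a single measurement plus a few reads of each variable exon, and their number is not a number of independent genes. The 22 β rows share no exon. The start of each row was also examined for sequence features. In a window from 250 bases before to 50 after the start, the letters CGCT on either strand, the core of the element that most of these promoters share, were found in 14 of 14 α, 22 of 22 β and 20 of 21 γ windows, against 71.3% of 23016 RefSeq start windows. The exception was Pcdhga12, whose window also held 0 CpG. Pcdhgc3 held 9 matches, the most among the members, and 26 CpG, second to the 29 of Pcdhac2. The median GC content of the windows was 42.3% in α, 39.8% in β and 48.0% in γ, against 57.0% over all starts. These matches describe letters in a window and not binding.

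The totals over RefSeq rows ranged from 25016322 to 30988288 counts, and the deposited RPKM (a level per length of exon and per library depth) rests on 18823247 to 23324537 reads per library. Counts of single libraries were compared as RPM, reads scaled to that depth without length. The targeted transcripts were lowered in their own libraries. Smc1a was at 14.4 RPKM in the SMC1 library and at 36.1 in GFP, and Ncaph2 was at 16.9 and 27.9 with CAPH2 #1 and #2 and at 80.2 in GFP. Smc2 was at 18.8 and 19.1 with its hairpins and at 26.6 in GFP. Ncaph2 was also below GFP in the SMC1 library, at 54.0, and with SMC2 #1 and #2, at 63.9 and 64.9. Smc2 was at 41.9 in SMC1 and at 42.3 and 40.6 with CAPH2 #1 and #2. Smc1a was at 41.7 to 46.9 in the condensin libraries. Embryonic stem cell markers were detected in every library (0 of 14 listed at 0), with a summed level of 2578 RPKM in the SMC1 library and 3620 to 4345 in the others. The 20 fibroblast and feeder markers summed to 690 RPKM in the SMC1 library, 619 with CAPH2 #1 and 454 to 519 in the other 4. At most 2 of the 20 had no count in any library, and the stromal genes ranged widely, with Col1a1 at 20.8 RPKM in GFP, 39.4 in SMC1 and 22.5 to 36.1 in the condensin libraries and Dcn at 0.026, 0.560 and 0.126 to 0.170. The 17 neural markers summed to 306 RPKM in the SMC1 library and 360 to 391 in the others, and the 15 endoderm markers to 398 and 238 to 290. Stmn2 alone made up most of the neural sum (243 RPKM in GFP, 128 in SMC1, 209 to 224 in the others), while the median log2 change of the 17 neural markers from GFP to SMC1 was 0.36, with 6 at least 2-fold higher and 1 lower. Fn1 and Vim made up most of the fibroblast sum (157 and 215 RPKM in GFP, 191 and 296 in SMC1). With CAPH2 #1 they were at 168 and 316. Sparc made up most of the endoderm sum (171 in GFP, 277 in SMC1). From GFP to SMC1 the median log2 change was 0.92 for fibroblast and 0.65 for endoderm markers. These medians cover the 17 and 14 markers with a mean of at least 10 counts. The SMC1 library thus had the lowest stem cell sum and the highest fibroblast and endoderm sums, and the part of these markers in the protocadherin results was not tested. In bulk RNA, more cells that express a gene and more RNA per cell cannot be told apart.

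The α cluster was barely detected in the control and stood higher in the SMC1 library. All 14 rows were at 0.270 to 0.343 RPKM in GFP and at 0.873 to 1.02 in SMC1. The ranges were 0.296 to 0.326 with CAPH2 #1, 0.233 to 0.323 with CAPH2 #2, 0.332 to 0.401 with SMC2 #1 and 0.289 to 0.379 with SMC2 #2. Every α row in the SMC1 library lay above every α row in the 5 other libraries, where 38.0% of all rows with a mean of at least 10 counts were highest in SMC1. The rows of GFP, CAPH2 and SMC2 overlapped.

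The lowest α row in each library bounds what the constant exons can hold. It had 31 counts in GFP, 88 in SMC1, 37 and 23 with CAPH2 and 40 and 31 with SMC2. In RPM the SMC1 value was 3.18 times that of GFP (95% exact binomial interval 2.09 to 4.95, counting error only). For CAPH2 the ratios were 1.10 (0.665 to 1.84) and 0.848 (0.472 to 1.503), and for SMC2 1.23 (0.752 to 2.04) and 1.05 (0.620 to 1.79). The intervals of the 4 condensin libraries include 1, and that of SMC1 lies above 2. Per length, the constant exons stood at no more than 0.504 RPKM in GFP and 1.60 in SMC1.

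SMC1 was tested against the 4 condensin libraries by edgeR's quasi-likelihood test over all rows, with the lone SMC1 library assumed to vary like the hairpin pairs. All 14 α rows were called higher at an adjusted p under 0.05, where 23.2% of all tested rows were called higher, 21.3% lower and 44.5% in either direction. No member was called lower (0 of 39 tested). Their log2 changes were 1.46 to 1.68, with standard errors of 0.218 to 0.251 and adjusted p-values of 0.000478 to 0.000956. Since the rows share reads, this is close to 1 call repeated. Against GFP, 14 of 14 α rows were at least 2-fold higher in SMC1, where 12.1% of the 18153 rows with a mean of at least 10 counts were. With 3 β rows this made 17 members, and 0 were 2-fold lower, where 8.34% of all rows were. Of these β rows, Pcdhb17 and Pcdhb18 reached a mean of 10 counts only through the SMC1 library (9.6 and 7.0 over the other 5), so they are no support for that count. The median log2 change over the 14 rows was 1.69 for SMC1, -0.03 for the CAPH2 average and 0.21 for the SMC2 average, against 0.03, 0.01 and -0.01 over all such rows. Scaled to the ERCC spike-ins, which raised the log2 values of SMC1 against GFP by 0.86, the CAPH2 median took the other sign (0.34), at the median of all rows on that scale (0.34).

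**Figure D1:**
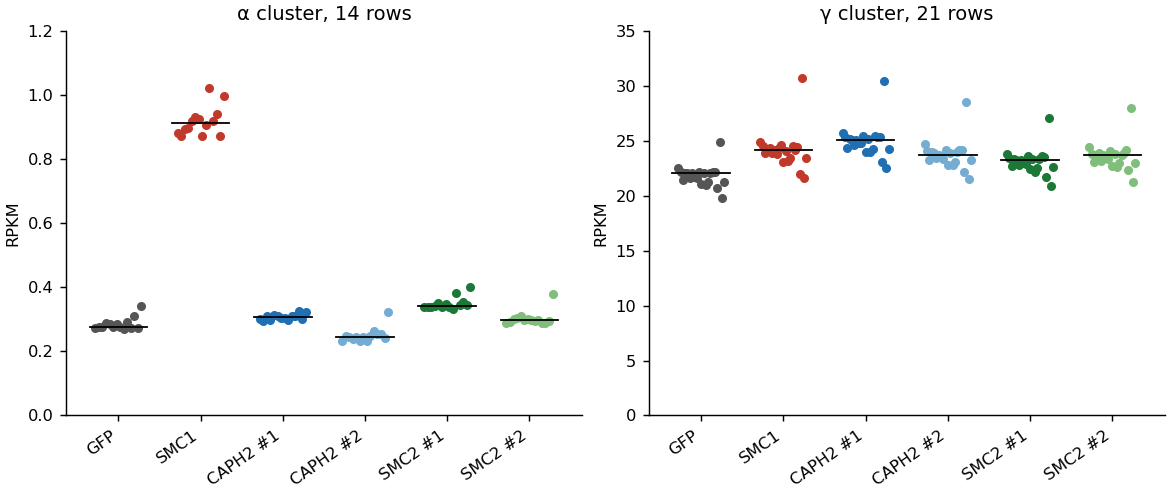
Level of each row (points, in chromosomal order from left to right within a library) of the α cluster (left) and the γ cluster (right) in the 6 libraries, in RPKM on linear axes that start at 0. Horizontal lines are the median over rows, which share constant exons. The α rows of the SMC1 library, at 0.873 to 1.02, lie above all other α points, while the γ rows lie between 19.8 and 30.7 in every library, with Pcdhgc3 as the highest point of each.

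What distinguishes α rows from each other is the reads of the variable exon, seen here as counts above the lowest row of the same library. Intervals for these counts leave out any variable-exon reads of that lowest row, which was not the same row in every library. Pcdhac2, a C-type member with the promoter nearest the constant exons, had the most, with 9 in GFP, 16 in SMC1, 4 and 10 with CAPH2 and 9 and 11 with SMC2. Its RPM in SMC1 was 1.99 times that of GFP (0.828 to 5.11), an interval that includes 1. Pcdha10, which had the largest change of its whole row against GFP (33 and 103 counts, log2 1.80), had 2 in GFP, 15 in SMC1, 1 and 3 with CAPH2 and 5 and 1 with SMC2. The other members with high mean counts were Pcdha12, Pcdha4 and Pcdha5, with 35, 33 and 32 counts in GFP and 95, 92 and 92 in SMC1. Pcdha7 and Pcdha11 had 32 and 31 in GFP and 93 in SMC1 both. Next to Pcdha10, the largest changes were those of Pcdha6 (31 counts in GFP and 94 in SMC1) and, with equal counts, Pcdha9 and Pcdha11 (31 and 93), and no α row was lower. The lowest mean counts were those of Pcdha1 and Pcdha8, with 31 each in GFP and 89 and 88 in SMC1. Over the 14 rows the counts above the lowest row summed to 20 in GFP and 73 in SMC1, an RPM ratio of 4.09 (2.46 to 7.08), and to 12, 26, 22 and 23 in the condensin libraries. In the SMC1 library 13 of 14 rows had such reads and in GFP 7, and the excess in RPM was above that of all 5 other libraries for 11 of 14.

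The β cluster was the lowest of the clusters and the one with the largest ratio in the SMC1 library. Its 22 rows together held 48 counts in GFP, 255 in SMC1, 110 and 61 with CAPH2 and 82 and 80 with SMC2. In RPM this was 2.23 in GFP, 13.3 in SMC1, 4.72 and 3.24 with CAPH2 and 3.64 and 3.92 with SMC2. The SMC1 sum was 5.95 times that of GFP (95% exact interval 4.35 to 8.27, counting error only) and 2.81 (2.24 to 3.55) to 4.09 (3.08 to 5.50) times those of the condensin libraries. These libraries were themselves at 2.11 (1.49 to 3.03) and 1.45 (0.979 to 2.17) times GFP with CAPH2 and at 1.63 (1.13 to 2.38) and 1.76 (1.21 to 2.57) with SMC2. All 4 were higher than the single GFP library, and the interval of CAPH2 #2 includes 1. CAPH2 #1, with the highest β sum of the 4, also had the highest fibroblast marker sum of them, which was mostly Fn1 and Vim. The part of these markers in the β sums was not tested.

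**Figure D2:**
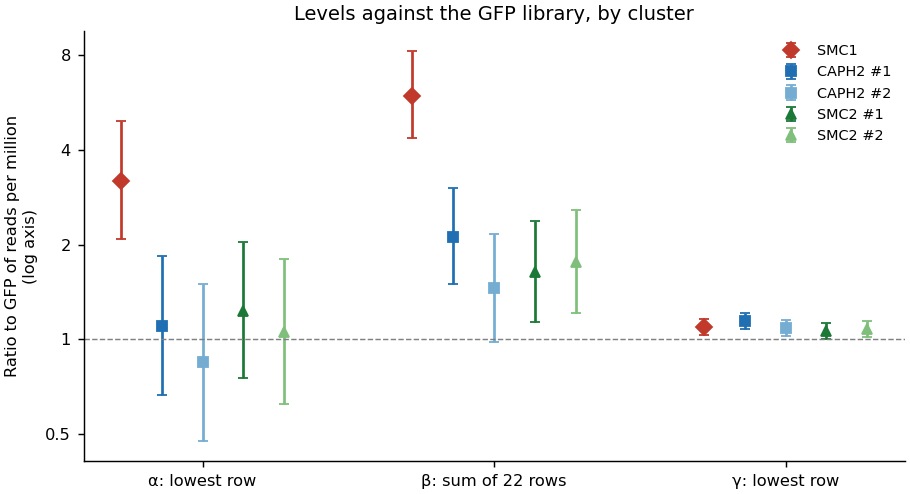
RPM of each knockdown library as a ratio to the GFP library, on a log axis, for the lowest α row, the sum of the 22 β rows and the lowest γ row. Bars are 95% exact binomial intervals for counting error only, and the dashed line marks a ratio of 1. SMC1 stands at 3.18 for α and 5.95 for β, and the γ ratios lie from 1.06 to 1.14.

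The rise of the β sum was spread over many rows. In the SMC1 library 21 of 22 β rows had a higher RPM than in GFP, and the exception was Pcdhb9, with 1 count in GFP and 0 in SMC1. Of the 22, 18 were higher in SMC1 than in each of the 5 other libraries, as were 37.6% of all rows with a count. Of the 19 rows with a mean under 10 counts, 18 were above GFP and 15 above all 5, where 65.7% and 36.1% of all RefSeq rows of such low counts were. In GFP 8 rows had no count, and in SMC1 1 row. A count of 0 allows up to 3 counts, so these rows may be present below detection at this depth. Without the rows of highest mean count, Pcdhb22 and Pcdhb17, the SMC1 sum was 5.92 times that of GFP (4.02 to 8.997). Over the 19 low rows it was 5.36 times (3.58 to 8.31).

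Pcdhb17 rose most clearly among single rows. It had 3 counts in GFP, 46 in SMC1, 16 and 10 with CAPH2 and 12 and 7 with SMC2. These are 0.043 RPKM in GFP, 0.732 in SMC1 and 0.105 to 0.210 in the condensin libraries, so the SMC1 value lay above the condensin values and those above GFP. The ratio of SMC1 to GFP was 17.2, with a wide counting interval of 5.52 to 86.3. Against the condensin libraries edgeR gave a log2 change of 2.16 (SE 0.350, adjusted p = 0.000974).

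Pcdhb22, the β row with the highest mean count, had 14 counts in GFP, 45 in SMC1, 32 and 17 with CAPH2 and 16 and 13 with SMC2. In RPKM it was at 0.212 in GFP, 0.763 in SMC1, 0.447 and 0.294 with CAPH2 and 0.232 and 0.208 with SMC2. The SMC1 library was again the highest, at 3.60 times GFP (1.94 to 7.10), and GFP lay within the range of the condensin libraries. Against these the log2 change was 1.38 (SE 0.332, adjusted p = 0.00819 by edgeR), a call that DESeq2 did not make (adjusted p = 0.113).

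Pcdhb18 had 2 counts in GFP, 25 in SMC1, 8 with each CAPH2 hairpin and 6 and 11 with SMC2. Its SMC1 to GFP ratio was 13.99 (3.49 to 122), and against the condensin libraries its log2 change was 1.70 (SE 0.452, adjusted p = 0.0129 by edgeR). Pcdhb2 had 3 counts in GFP, 23 in SMC1, 8 and 1 with CAPH2 and 5 and 10 with SMC2, with a ratio of 8.58 (2.59 to 44.6) and a log2 change of 2.08 against the condensin libraries (SE 0.593, adjusted p = 0.0178 by edgeR). The SMC1 library was the highest for both rows. They entered the test only because the SMC1 library and SMC2 #2 had at least 10 counts, so their calls rest partly on the library in which they were high. In all, 4 β rows were tested and called, and 18 had too few counts for the test.

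Among the other β rows the counts were small. Pcdhb20 had 7 in GFP, 11 in SMC1 and 4 to 9 in the condensin libraries, and its SMC1 to GFP ratio of 1.76 had an interval of 0.623 to 5.35, so a difference was not detectable at this depth. Pcdhb14 had 2 in GFP, 12 in SMC1, 7 and 5 with CAPH2 and 5 and 8 with SMC2 (ratio 6.72, 1.495 to 61.8). Pcdhb9 and Pcdhb10 had the lowest mean, with 2 counts each over all libraries. The counting interval of the SMC1 to GFP ratio lay wholly above 1 for 9 of 22 β rows, and for 34.8% of all RefSeq rows. Of the 19 low rows it did so for 6, and for 11.8% of all rows of such low counts. Besides rows already described, these were Pcdhb3 (1 count in GFP and 18 in SMC1), Pcdhb19 (3 and 18), Pcdhb4 (0 and 7) and Pcdhb13 (0 and 5), named here after their values were seen.

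**Figure D3:**
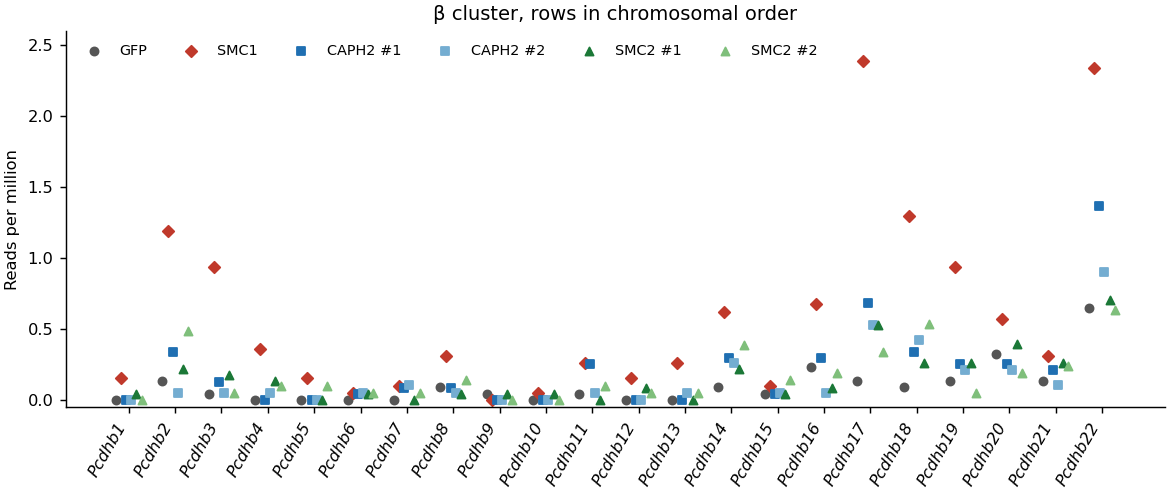
RPM for each of the 22 β rows, in chromosomal order, in the 6 libraries (symbols and colours as in the key), on a linear axis. The SMC1 symbols are the highest for 18 of 22 rows and reach their largest values at Pcdhb17 and Pcdhb22, with 46 and 45 counts.

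The γ cluster was the expressed one in these cells. All 21 rows were above 1 RPKM in GFP, while 0 of the α and β rows were. The rows lay between 19.8 and 24.9 RPKM in GFP, 21.6 and 30.7 in SMC1, 22.6 and 30.5 with CAPH2 #1, 21.5 and 28.6 with CAPH2 #2, 20.9 and 27.1 with SMC2 #1 and 21.3 and 28.04 with SMC2 #2. The lowest row by count was Pcdhga6 in every library, with 2125 counts in GFP, 2077 in SMC1, 2629 and 2017 with CAPH2 and 2355 and 2170 with SMC2. That bounds the constant exons at 46.7 RPKM in GFP and at 49.4 to 53.3 in the others, on the scale on which the α constant exons were at no more than 0.504 in GFP. An additional row of the γ cluster without a symbol in the tables used, from 37921455 to 38001524, was not counted as a member and had 2166 counts in GFP, 2078 in SMC1 and 2052 to 2669 in the condensin libraries.

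Unlike α and β, the whole rows of γ did not differ between SMC1 and the condensin libraries beyond the spread of the hairpins. These rows are mostly shared constant-exon reads, so the test says little about single variable exons. Log2 changes of the 21 rows ran from -0.04 (Pcdhga12) to 0.08 (Pcdhgc3), with standard errors of 0.0761 to 0.0779, and 0 were called. Of these, 0 had an unadjusted p under 0.05 by edgeR, and DESeq2 called 0. Against GFP the rows were slightly higher in each knockdown. The median log2 change was 0.14 for SMC1 (0.09 to 0.30), 0.16 for the CAPH2 average and 0.10 for the SMC2 average, and 0 rows reached a 2-fold change. GFP was the lowest library for 21 of 21 rows, as for 28.6% of all rows with a mean of at least 10 counts. Scaled to the ERCC spike-ins the same medians were 1.01, 0.50 and 0.70, where the medians of all rows were 0.89, 0.34 and 0.60, so the size of the γ change against GFP depended on the scaling.

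Pcdhgc3, a C-type gene that is widely expressed outside neurons, was the highest γ row of all libraries. It had 24.9 RPKM in GFP, 30.7 in SMC1, 30.5 and 28.6 with CAPH2 and 27.1 and 28.04 with SMC2, which puts GFP below the other 5. In counts it exceeded the lowest row by 389 in GFP, 689 in SMC1, 700 and 505 with CAPH2 and 509 and 512 with SMC2. In RPM these reads, which lie mostly in its own variable exon, were 18.1 in GFP, 35.8 in SMC1, 30.0 and 26.8 with CAPH2 and 22.6 and 25.1 with SMC2. The ratio to GFP was 1.98 (1.75 to 2.25) for SMC1, 1.66 (1.46 to 1.88) and 1.48 (1.30 to 1.70) for CAPH2, and 1.25 (1.09 to 1.43) and 1.39 (1.21 to 1.59) for SMC2. All 5 intervals lie above 1, and they cover counting error only, with a single GFP library behind each. They also leave out any variable-exon reads of the subtracted row, Pcdhga6.

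The other variable exons of γ did not all move together. Summed over the 21 rows, reads above the lowest row were at 53.3 RPM in GFP, 88.4 in SMC1, 68.1 and 65.9 with CAPH2 and 60.4 and 68.3 with SMC2. In SMC1 17 of 21 rows were above GFP and 3 below, and the counting interval of the ratio lay above 1 for 12 rows and below 1 for 1. With CAPH2 it lay above 1 for 4 and 2 rows and below for 1 and 1, with SMC2 for 3 and 3 and for 0 and 0. The SMC1 value was above all 5 other libraries for 14 of 21 rows and below all 5 for 2. These intervals take the excess as a plain count and leave out any variable-exon reads of Pcdhga6, the subtracted row. Such reads would shift all ratios of a library together, so the numbers of rows above and below 1 are uncertain. The excess has no counterpart over all RefSeq rows. For whole rows the SMC1 to GFP interval lay above 1 in 34.8% of all RefSeq rows. Pcdhga7 had 40 such counts in GFP, 104 in SMC1, 73 and 34 with CAPH2 and 49 and 54 with SMC2, a SMC1 to GFP ratio of 2.91 (2.00 to 4.30). Pcdhga3 had 40 in GFP, 78 in SMC1 and 35 to 44 in the condensin libraries (2.18, 1.47 to 3.28). These rows, with Pcdhgc3, had the largest changes of the whole row against GFP, with log2 values of 0.17 and 0.16. The row below 1 in SMC1 was Pcdhga12, the smallest change of the cluster (log2 0.09). It had 140 such counts in GFP, 75 in SMC1, 102 with each CAPH2 hairpin and 131 and 151 with SMC2, and the ratio of SMC1 to GFP was 0.600 (0.447 to 0.799). Its SMC1 value was the lowest of the 6 in RPM.

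Other rows of high total count were Pcdhga11, Pcdhga1 and Pcdhga2. Above the lowest row Pcdhga11 had 125 counts in GFP, 143 in SMC1 and 125 to 157 in the condensin libraries (SMC1 to GFP 1.28, 1.00 to 1.64). Pcdhga1 had 77, 98 and 84 to 99 in the same order (1.42, 1.05 to 1.95), and Pcdhga2 38, 63 and 38 to 56 (1.86, 1.22 to 2.85). The C-type genes next to Pcdhgc3 were far lower, Pcdhgc4 at 15 in GFP and 11 in SMC1 and Pcdhgc5 at 33 and 47. Pcdhgc3 held 33.9% of the γ reads above the lowest row in GFP, 40.5% in SMC1, 44.1% and 40.7% with CAPH2 and 37.4% and 36.7% with SMC2, so GFP had the lowest share and SMC1 lay within the range of the condensin libraries. The row of Pcdhga6 is the base of this measure, so reads of its own variable exon cannot be seen.

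**Figure D4:**
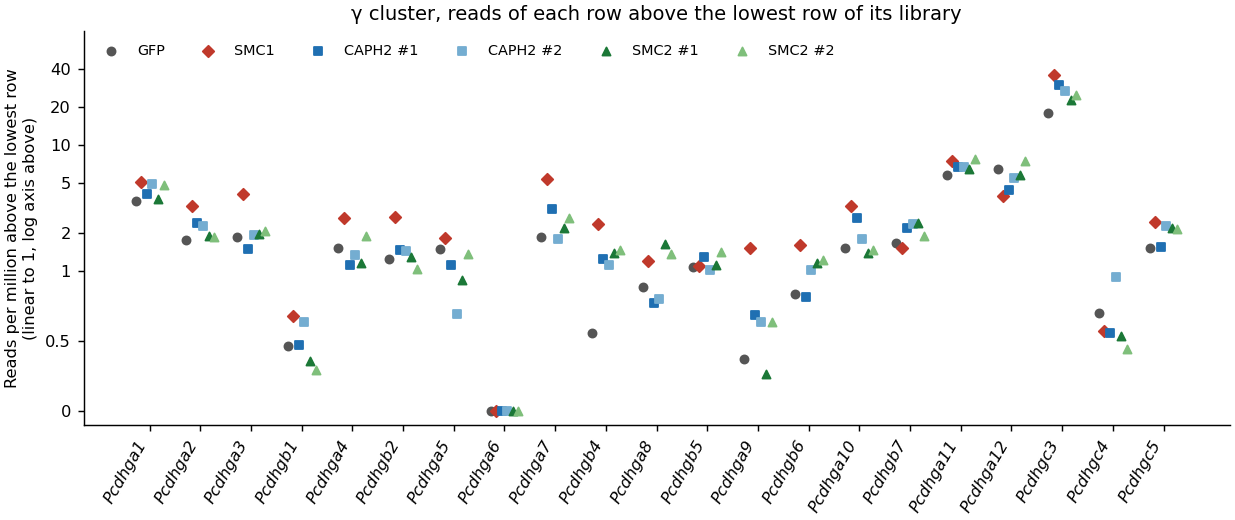
RPM of each γ row above the lowest row of the same library, in chromosomal order, for the 6 libraries, on an axis that is linear to 1 and logarithmic above. Pcdhga6, the lowest row, is at 0 by construction. Pcdhgc3 stands apart at 18.1 to 35.8, SMC1 (diamonds) is above GFP (circles) for 17 of 21 rows, and at Pcdhga12 the SMC1 point is the lowest of the 6.

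The condensin hairpins were compared with each other and with GFP by the same test. Between CAPH2 and SMC2, 37 members were tested and 0 called by edgeR, with 0 at an unadjusted p under 0.05 and 0 called by DESeq2, where 0.00548% of all tested rows were called. The log2 difference of SMC2 minus CAPH2 was 0.16 to 0.28 for α (SE 0.242 to 0.280) and -0.09 to -0.03 for γ (SE 0.0679 to 0.0695). Of the β rows tested, it was -0.46 for Pcdhb17 (SE 0.444) and -0.76 for Pcdhb22 (SE 0.362).

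Against GFP the 4 condensin libraries together gave 0 calls among 37 members by edgeR and 0 by DESeq2, where 12.6% of all tested rows were called, 7.04% higher and 5.55% lower. At an unadjusted p under 0.05 there were 2. Pcdhb17 was 1.87 higher on the log2 scale (SE 0.698, adjusted p = 0.1055 by edgeR). With 3 counts in GFP and 16, 10, 12 and 7 in the condensin libraries, it entered this test only through the latter. Its value is therefore a description and no support for a rise. Pcdhgc3 was 0.21 higher (SE 0.0774, adjusted p = 0.107 by edgeR). The α rows lay between -0.00 and 0.14, with standard errors of 0.272 to 0.318, so a change of this size was not detectable. A 2-fold rise against GFP was reached by 2 members with CAPH2 and 2 with SMC2, Pcdhb17 and Pcdhb18 in both, where 2.1% and 1.51% of all rows with a mean of at least 10 counts were. Both rows met the mean of 10 counts only through SMC1, so this count is a description of them alone. No member was 2-fold lower (0 in both), where 0.689% and 0.622% of all rows were. Both comparisons use the same GFP library.

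**Figure D5:**
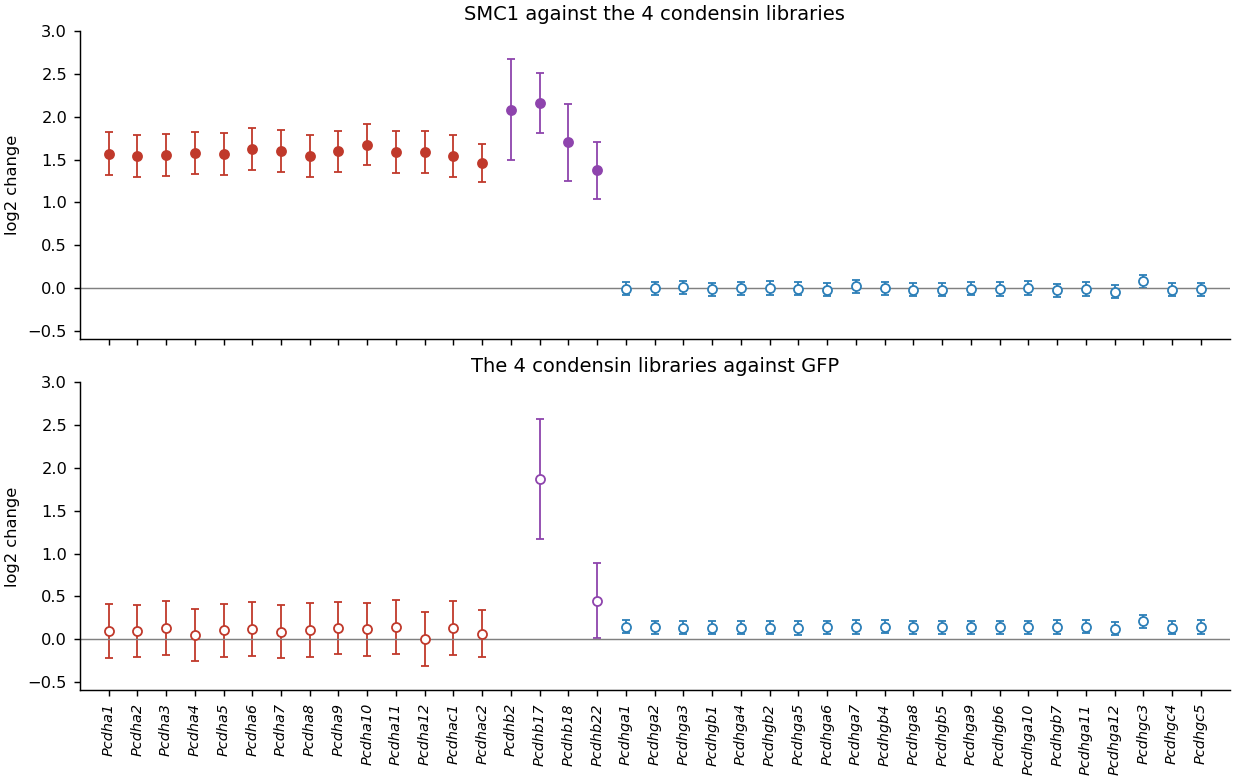
Log2 change with its standard error (edgeR) for each tested member in chromosomal order, for SMC1 against the 4 condensin libraries (top) and for these 4 against GFP (bottom). Filled points have an adjusted p under 0.05, and colours mark the α (red), β (purple) and γ (blue) clusters. The top panel has 18 filled points, 14 α rows that share constant exons and 4 β rows, and the bottom panel has 0.

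Genes that act on or with the clusters were read from lists drawn up for this comparison. Among 12 genes of cohesin, CTCF and their loading, 4 were called higher and 2 lower in SMC1 against the condensin libraries by edgeR, where 23.2% and 21.3% of all tested rows were, so the share called (6 of 12) was near the 44.5% of all rows. Ctcf, the factor that binds the promoters, was at 61.8 RPKM in GFP, 71.4 in SMC1 and 69.6 to 72.9 in the condensin libraries (log2 -0.02, SE 0.0673, adjusted p = 0.814). Rad21, the kleisin of cohesin, was at 132 in GFP, 142 in SMC1 and 141 to 148 in the others. The cohesin subunits Stag1 and Stag2 rose to 28.5 and 29.8 RPKM in SMC1, from 14.03 and 13.1 in GFP and 18.1 to 20.1 in the condensin libraries (log2 0.59 each, adjusted p = 0.000214 and 0.000188). Smc1a, the target of the SMC1 hairpin and so lowered by design, was among those called lower (log2 -1.67) and counts in the share above. Wapl, which releases cohesin, was at 39.9 RPKM in GFP, 44.4 in SMC1 and 52.1 to 55.6 in the condensin libraries, so that it was lower than in the latter (log2 -0.30, adjusted p = 0.00716) and not than in GFP. Against GFP the condensin libraries had 7 of the 12 called higher and 0 lower, where 7.04% and 5.55% of all rows were, led by Pds5b (0.59, SE 0.0777, adjusted p = 0.00925) and Stag2 (0.59, adjusted p = 0.00935).

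Of 13 genes of DNA and histone methylation, 3 were called higher and 7 lower in SMC1, against 23.2% and 21.3% of all rows. Dnmt3b, a de novo DNA methyltransferase, was at 115 RPKM in GFP, 207 in SMC1 and 114 to 138 in the condensin libraries (log2 0.67, SE 0.0696, adjusted p = 7.3e-05). Smchd1, a chromatin protein known to keep clustered protocadherins silent, was at 13.1 in GFP, 22.6 in SMC1 and 16.2 to 17.4 in the others (0.40, SE 0.0773, adjusted p = 0.00268). Relative to the condensin libraries, Eed, a Polycomb subunit, and Rest, a repressor of neuronal genes, fell by 0.85 and 0.68 (adjusted p = 7.65e-05 and 0.00176). Trim28, with the highest mean count of the list, fell by 0.28 (adjusted p = 0.00966). The condensin libraries had 2 of the 13 higher than GFP, Smchd1 (0.38) and Eed (0.33), and 0 lower.

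Of 21 signalling partners of clustered protocadherins, 8 were called higher and 1 lower in SMC1, a share called close to the 44.5% of all rows, and 0 between the condensin libraries and GFP. Marcks, a substrate of protein kinase C with the highest mean count of them, was at 63.8 RPKM in GFP, 104 in SMC1 and 55.2 to 62.4 in the others (log2 0.81, SE 0.0671, adjusted p = 2.32e-05). Rac1 rose by 0.29 (adjusted p = 0.00832). Ret, a receptor kinase that pairs with α and γ proteins, rose by 0.97 (SE 0.264, adjusted p = 0.0150) from a low level of 0.302 to 0.447 RPKM in the condensin libraries. Rhoa fell by 0.36 (adjusted p = 0.00445).

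Protocadherins and related cadherins outside the clusters were tested in the same way. Of 15 listed protocadherins with a row, 7 were tested, and 6 were called higher in SMC1 and 1 lower, against 23.2% and 21.3% of all rows. Pcdh19, on chromosome X, was at 0.361 RPKM in GFP, 4.36 in SMC1 and 0.583 to 0.704 in the condensin libraries (log2 2.72, SE 0.122, adjusted p = 9e-07). Pcdh17 was at 0.029, 0.410 and 0.063 to 0.084 in the same order (2.37, SE 0.283, adjusted p = 0.000171). Pcdh1, with the highest mean count, which lies 3′ of the γ cluster on chromosome 18, was at 6.53 in GFP, 22.5 in SMC1 and 6.73 to 8.16 in the others (1.59, SE 0.0986, adjusted p = 4.59e-06). Cdhr1 was the one called lower, by 0.88. Against GFP the condensin libraries had 3 higher, among them Pcdh18 (1.31, SE 0.199, adjusted p = 0.0101) and Pcdh19 (0.86, SE 0.203, adjusted p = 0.0279), and Cdhr1 lower. Pcdh18 and Pcdh19 were thus called in both tests.

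Of 11 large atypical cadherins 6 were called higher in SMC1 and 2 lower, against 23.2% and 21.3% of all rows. A list of classical cadherins that also held desmosomal ones and Cdh13 had 15 tested, with 8 called higher and 1 lower. Fat1, with the highest mean count of the atypical group, was at 20.9 RPKM in GFP, 91.7 in SMC1 and 31.3 to 42.2 in the condensin libraries (log2 1.27, SE 0.115, adjusted p = 3.528e-05). Clstn2 and Fat4 rose most, by 1.90 and 1.81, although Clstn2 entered the test only because the SMC1 library was among the 2 with 10 counts. Fat2 and Clstn3 fell by 2.99 and 0.76. Clstn1 was at 46.6 in GFP, 48.2 in SMC1 and 40.3 to 45.0 in the others (0.16, adjusted p = 0.138). Cdh1, the E-cadherin of ESCs, was at 134 RPKM in GFP and at 116 in SMC1, within 116 to 130 of the condensin libraries (adjusted p = 0.445). Cdh10 and Cdh6 rose by 2.47 and 1.78, and the desmosomal Dsg2 fell by 1.02 (adjusted p = 0.000124). Against GFP the condensin libraries had Fat4, Fat1, Cdh11 and Cdh2 higher by 1.23, 0.85, 1.16 and 0.75, and Fat2 and Cdh3 lower, by 1.14 and 0.38.

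Among the genes beside the clusters on chromosome 18, calls in SMC1 went both ways. Of 16 tested, 2 were called higher in SMC1, Pcdh1 and Arap3 (1.19, SE 0.132, adjusted p = 0.000113), and 4 lower, against 23.2% and 21.3% of all rows. Taf7, which lies between the β and γ clusters, was at 44.2 RPKM in GFP, 44.4 in SMC1 and 51.6 to 57.9 in the condensin libraries (log2 -0.31, adjusted p = 0.0168). Diaph1, which lies just 3′ of γ, was at 57.6 in GFP, 37.5 in SMC1 and 47.8 to 54.9 in the others (-0.48, adjusted p = 0.00120). Against GFP the condensin libraries had Zmat2 and Taf7 higher by 0.31 and 0.30, and Dnd1 and Tmco6 lower by 0.53 and 0.49 on the log2 scale. Of the markers, 11 of 14 stem cell markers tested were lower and 1 higher in SMC1 than in the condensin libraries, 10 of 17 fibroblast markers were higher and 0 lower, 5 of 15 neural markers were higher and 2 lower, and 6 of 14 endoderm markers were higher and 1 lower, where 23.2% of all rows were higher and 21.3% lower. Between the condensin libraries and GFP, 3 of 17 fibroblast, 2 of 14 endoderm and 1 of 15 neural markers were higher. Lower were 2 of 14 stem cell markers and 1 of 15 neural markers. Of all rows 7.04% were higher and 5.55% lower, so such small numbers say little about these lists.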

How the data were processed

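Polyadenylated RNA of 652000 V6.5 cells per library was sequenced after 1.42 µl of diluted ERCC RNAs had been added. Alignment was to mm9 by Bowtie, and a read with over 2 alignments was dropped. The authors deposited raw counts of exonic reads per RefSeq row and RPKM, which scales these counts to exon length and library reads. Read length and strand in counting are not given in the sources used here. Of 40-base stretches of the variable or β exons, a median of 18.0% in α, 6.96% in β and 1.61% in γ occur in another member, so such reads may be lost or placed with a paralog.

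Symbols came from RefSeq accessions and were matched for 25353 rows. Tests used edgeR 4.0.16 (TMM, quasi-likelihood, Benjamini-Hochberg over all rows where 2 or more of the fitted libraries had 10 counts) in R 4.3.3, with DESeq2 1.42.0 as an alternative, and were tested on simulated data. The comparisons were SMC2 against CAPH2, SMC1 against both, and both against GFP. Ratios between single libraries use the depth behind the RPKM, with 95% exact binomial intervals (scipy 1.17.1), and carry no test. Log2 changes against GFP used RPKM without a pseudocount for rows with a mean of at least 10 counts, and averaged the hairpins. p-values measure the spread between hairpins of a target. By value are named, per cluster, the 6 members of highest mean count, the 3 largest changes in each direction, the lowest, and every called member. From the other lists the 2 genes of highest mean count and the 2 largest calls in each direction are named. Marker lists are given by counts, sums and medians, with Col1a1, Dcn, Stmn2, Fn1, Vim and Sparc named after their values were seen. Members and lists were chosen with earlier results of these data known. No sequence is printed.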

Additional observations from a re-analysis of the deposited data

How the results depend on the processing

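All 18 member calls of SMC1 against the condensin libraries were also made with DESeq2 size factors, ERCC scaling, a single row per gene and the replicate block. These are not 18 independent calls, since the α rows share constant-exon reads and are close to a single call repeated. Pcdhb2 and Pcdhb18 passed the count filter only through the SMC1 library, in which they were high, and SMC2 #2. Their repeated calls are therefore no independent support. With ERCC scaling 1711 rows were called for SMC1 against the condensin libraries in place of 8191, 1540 higher and 171 lower against 4273 and 3918. DESeq2 called 15 members, without Pcdhb22 and with no adjusted p for Pcdhb2 and Pcdhb18. Over all rows it called 3032 of 18398 higher. Without the filter on low counts 21 members were called, 7 of them β rows, where 4645 of 22408 rows were called higher. Only 3 β rows had a mean of at least 10 counts, so β calls without the filter rest mostly on very few reads. Without SMC2 #2, 16 were called, since Pcdhb2 and Pcdhb18 were no longer tested.

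Between CAPH2 and SMC2 1 row was called, 3 with DESeq2 size factors, 4 with ERCC scaling, 5 by DESeq2, 8 without the filter, 3 with a single row per gene and 1 to 404 when a hairpin was left out, the last without CAPH2 #2. Among members the count was 0 under each of these. The condensin libraries against GFP gave 2305 rows, 2 with ERCC scaling and 1192 (without SMC2 #2) to 5042 (without CAPH2 #2) with a hairpin left out (1387 without SMC2 #1, 3530 without CAPH2 #1), and 0 to 1 members, the 1 being Pcdhb17 without CAPH2 #2. Pcdhb17 passed the count filter of that test only through the condensin libraries, in which it was higher than in GFP. Hairpin numbers do not pair the libraries (correlation of same-numbered deviations 0.0488). With the replicate number as a block 15 rows were called between CAPH2 and SMC2 and 4246 against GFP, with 0 members.

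Of the changes against GFP, 17 members passed 2-fold for SMC1, where 12.1% of all rows were 2-fold higher. With ERCC scaling it was 30, but on that scale the median log2 change of all rows was itself 0.89. The γ rows, which share reads, had a median of 1.01, and no share of all rows is given for that scale. With a mean of at least 50 counts the number was 1. It was 0 with an RPKM of at least 1 in GFP or a pseudocount of 1 RPKM, which leave out or compress α and β. For CAPH2 and for SMC2 the 2 members became 0 under each of these filters and the pseudocount. Under ERCC scaling the medians were 2.55 for α and 1.01 for γ with SMC1, 0.34 and 0.50 with CAPH2 and 0.82 and 0.70 with SMC2, and the β sums rose to 3.44, 1.23 and 1.36 on the log2 scale from 2.57, 0.83 and 0.76. With a pseudocount of 1 RPKM the α median was 0.57 for SMC1 and 0.05 for SMC2. The β sums without Pcdhb22 and Pcdhb17 and over low rows were chosen after seeing the data. GFP and SMC1 are single libraries, and β rows had under 50 counts each, which limits precision.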
